A study of Homo sapiens with 3 samples.

Results

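The genes described here encode the proteins of the cytosolic ribosome. They were taken by symbol, as RPL, RPLP or RPS followed by a number and at most a closing A, X or L, together with RPSA. This rule found 81 of the 18856 genes listed in at least 1 library, 49 of the large subunit (RPL and RPLP) and 32 of the small subunit (RPS and RPSA). Of these, 81 were listed in the HBE LIEA library, 79 in the A549 LIEA library and 80 in the HBE Smart-seq2 library. HBE is a human bronchial epithelial cell line, and A549 is a human lung adenocarcinoma cell line. Each library started from about 10 pg of polyA+ mRNA diluted from bulk mRNA of cultured cells. In LIEA (Low-Input Equal-Amplification), the mRNA was fragmented, ligated to adapters and reverse transcribed. The resulting cDNA library was amplified by PCR and sequenced on an Ion Torrent instrument. In Smart-seq2, the cDNA of whole transcripts was amplified by PCR before an Illumina library was built. Each condition had 1 library, so no difference below has a replicate check, no p-value was computed, and cell line and library cannot be told apart.

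The ribosome is built from a small subunit, which decodes the mRNA, and a large subunit, which forms peptide bonds and passes the nascent chain through its exit tunnel. Nearly all of its proteins are present in a single copy per ribosome, so their supply is usually considered as a matter of balance between genes. Ribosomal protein mRNAs are short and among the most abundant of a cultured cell, and most start with a tract of C and T bases, the terminal oligopyrimidine motif, through which the mTOR pathway controls their translation. Several members also act outside the ribosome, and mutations of some of them cause Diamond-Blackfan anaemia.

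The deposited unit is log2 rpkM, that is the reads of a gene per kilobase of transcript and per 1000000 mapped reads, on a log2 scale. Whole reads were recovered from these values for 18855 of the 18856 genes, with totals of 4605855 mapped reads for HBE LIEA, 4154060 for A549 LIEA and 9845150 for HBE Smart-seq2. A gene with at least 10 reads was taken as quantified. A gene was called higher or lower when its rpkM differed by at least 2-fold between 2 libraries that both quantified it. Intervals in brackets are exact 95% intervals of the ratio of reads and cover counting error only, and reads amplified by PCR without molecular identifiers are not independent molecules. Each value is a share of the mRNA sequenced, so the ribosomal protein mRNA per cell was not measured, and fewer cells of a type and less RNA per cell cannot be told apart. As a check of the labels, the basal epithelial keratin gene KRT5 had log2 rpkM of 9.11 in HBE LIEA, 0.91 in A549 LIEA and 8.67 in HBE Smart-seq2, and KRT8, a simple epithelial keratin, had 8.98, 11.95 and 10.07. The other epithelial markers were also read in each library, with KRT18 higher and KRT19, EPCAM and CDH1 lower in A549 LIEA than in HBE LIEA. Of the markers of other cell types, CD3E and HBB were not listed, PTPRC had 0, 2 and 3 reads, PECAM1 had 20, 9 and 91, CD14 had 62, 180 and 52, and COL1A1 had 175, 93 and 85. Their part in the results was not tested.

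The members took 6.44% of the mapped reads in HBE LIEA (Wilson interval 6.42 to 6.46), 6.18% in A549 LIEA (6.16 to 6.21) and 3.83% in HBE Smart-seq2 (3.82 to 3.84). On the rpkM scale, which corrects for their short transcripts, they made up 17.3%, 15.1% and 8.45% of the sum. Setting aside the paralogs RPL3L, RPL10L, RPL39L and RPS27L, which are copies of other members, 77 genes remained, 46 of the large and 31 of the small subunit. All 77 were quantified in each of the 3 libraries. Among these 77, the median log2 rpkM was 9.53 in HBE LIEA, 9.37 in A549 LIEA and 8.46 in HBE Smart-seq2. The LIEA libraries were alike in the width of this distribution, with an SD over genes of 1.28 in HBE and 1.24 in A549, and the SD in Smart-seq2 was 1.99. The distance from the lower to the upper quartile differed less, at 1.75 in HBE LIEA, 1.63 in A549 LIEA and 1.83 in HBE Smart-seq2. The highest member exceeded the lowest 93.1-fold in HBE LIEA, 85.4-fold in A549 LIEA and 2844-fold in HBE Smart-seq2. Within 2-fold of the median lay 43, 48 and 35 of the 77 genes.

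In HBE LIEA the highest members were RPLP0, the base of the stalk that recruits translation factors, at a log2 rpkM of 11.85, RPS18 of the small subunit head at 11.76 and RPS2 of the mRNA entry site at 11.75. In A549 LIEA they were RPS16, which reaches into the decoding centre, at 12.27, RPLP0 at 11.63 and RPL19 at 11.54. In HBE Smart-seq2 the stalk genes RPLP1 at 11.38 and RPLP0 at 10.75 led, followed by RPS14 of the platform at 10.45. RPLP0 was thus among the leading 3 of each library. RPL36A was the lowest of the 77 in both LIEA libraries, at 5.31 with 432 reads in HBE and 5.86 with 568 reads in A549, and RPS29 was the lowest in Smart-seq2, at -0.10 with 13 reads. These ranks are of rpkM and depend on the transcript length used, which for RPL36A was 2361 nt with 318 coding nt.

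**Figure D1:**
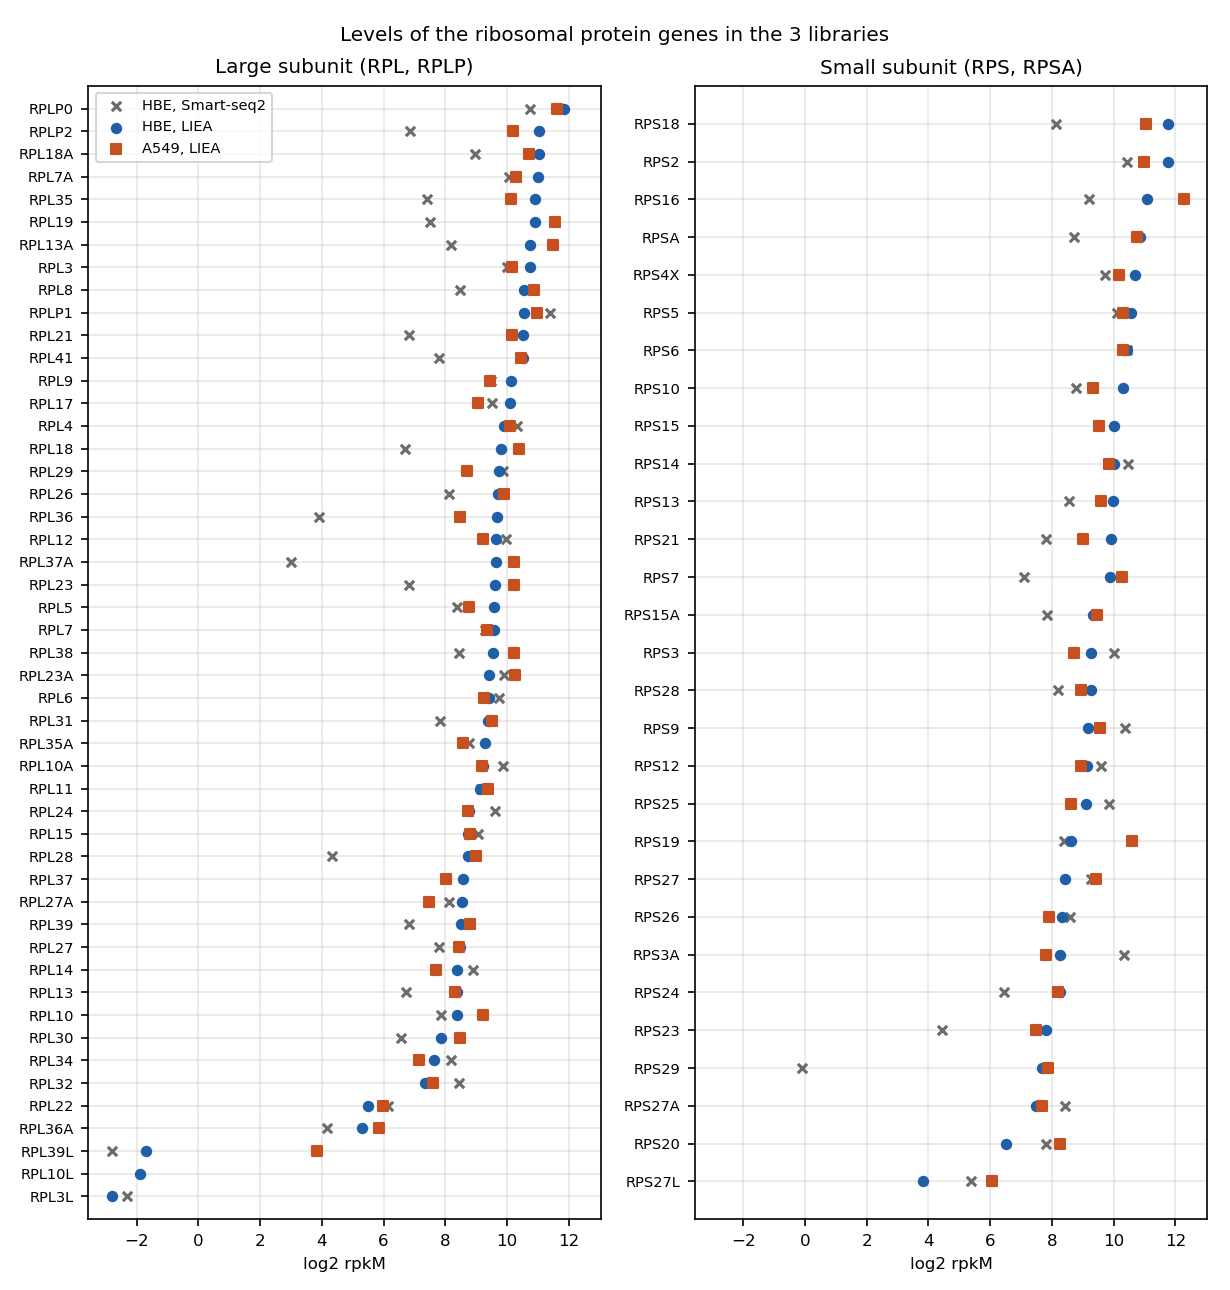
Level of 78 of the 81 members (log2 rpkM, horizontal axis) in HBE Smart-seq2 (crosses), HBE LIEA (circles) and A549 LIEA (squares), for the large subunit on the left and the small subunit on the right, each ordered by HBE LIEA. The LIEA values lie close together for most genes, and the Smart-seq2 values of RPS29, RPL37A, RPL36 and RPL28 lie far to their left.

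The subunits were nearly balanced in mean rpkM in the LIEA libraries and less so in Smart-seq2. The mean rpkM of the 46 large subunit genes was 0.952 times that of the 31 small subunit genes in HBE LIEA, 0.937 times in A549 LIEA and 0.853 times in HBE Smart-seq2. The difference of the median log2 rpkM, large minus small, was 0.23, -0.15 and -0.42. The transcript length used for rpkM bears on these levels. It ranged from 351 nt for RPS27 to 4879 nt for RPL27A with a median of 781 nt, against 3154.5 nt for all genes quantified in both LIEA libraries. For 9 of the 77 genes it exceeded 2000 nt, and for these it was far above the coding length, as for RPL27A with 444 coding nt, RPL13 with 4672 nt and 633 coding nt, and RPL28 with 4401 nt and 411 coding nt. Counting reads per coding length instead, the difference of the medians was 0.09 in HBE LIEA, 0.08 in A549 LIEA and -0.07 in HBE Smart-seq2. By this measure, Smart-seq2 was no further from balance than the LIEA libraries. The SD over genes was then 1.07, 1.07 and 1.72. Ratios between libraries do not depend on the length.

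Between the cell lines, most ribosomal protein genes stayed within 2-fold. Of 78 members quantified in both LIEA libraries, 69 (88.5%) differed by less than 2-fold, 5 were higher in A549 and 4 were lower. Among all 11312 genes quantified in both, 69.2% were within 2-fold, 13.5% were higher in A549 and 17.3% were lower. The 5 higher members were all of the small subunit, RPS27L, RPS19, RPS20, RPS16 and RPS27, and the 4 lower ones were all of the large subunit, RPL36, RPL27A, RPL29 and RPL17. Members have many reads, and with at least 1000 reads in both libraries 2 of 59 were higher and 3 lower, beside 8.31% and 7.87% of the 445 such genes. That filter removed the called members RPS27L, RPS20, RPS27 and RPL36, each under 1000 reads in its lower library. It thus selects on the ratio itself, and these counts are no separate check.

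The median log2 ratio of A549 LIEA to HBE LIEA over the 78 members was -0.07, with a median of -0.04 for the large and -0.14 for the small subunit, beside -0.16 for all genes. The sign of the members' median depended on the scaling. It was 0.09 after centring on the median of all genes, 0.06 with trimmed mean of M values factors and -0.23 in TPM. The SD of the log2 ratio over the members was 0.68, against 1.20 over all genes. It was 0.61 against 0.82 where both libraries had at least 1000 reads, a filter that selects on the ratio itself. Without that filter, the SD was 0.58 for the large and 0.81 for the small subunit. That order turned with a measure less sensitive to single genes, the scaled median absolute deviation, which was 0.77 for the large and 0.49 for the small subunit. Small subunit genes thus formed a narrower core with a few genes far to the A549 side.

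**Figure D2:**
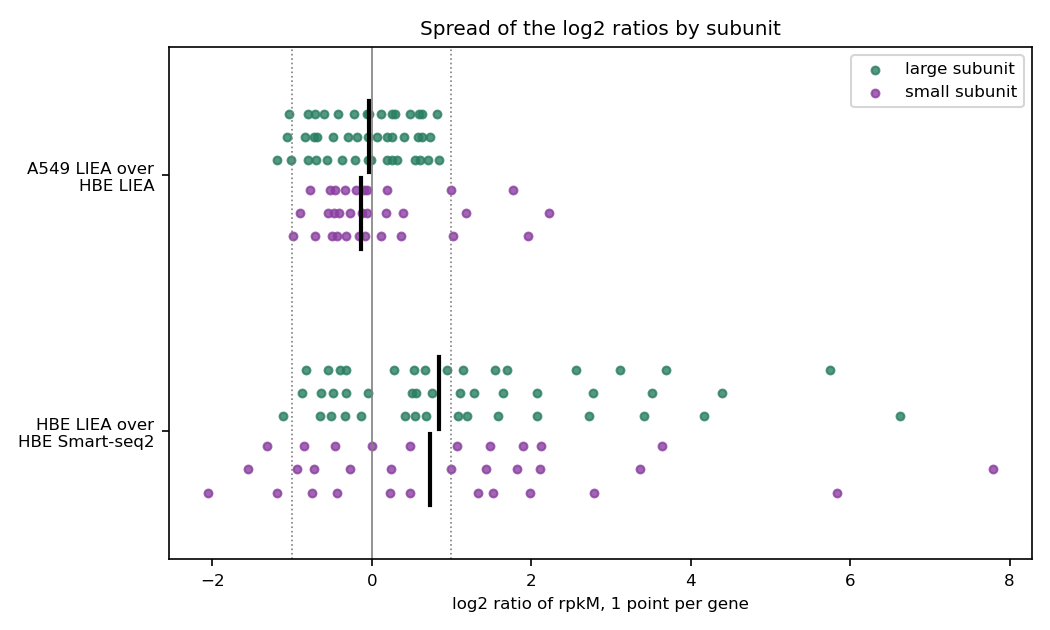
Log2 ratio of rpkM of each member (1 point per gene, large subunit above and small subunit below within each comparison), for A549 LIEA over HBE LIEA and for HBE LIEA over HBE Smart-seq2. Thick bars are medians and dotted lines mark 2-fold, and the ratios between methods spread wider than those between cell lines.

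RPS19, a protein of the small subunit head needed for the maturation of its rRNA and the gene most often mutated in Diamond-Blackfan anaemia, had a log2 rpkM of 8.62 (1538 reads) in HBE LIEA, 10.58 (5411 reads) in A549 LIEA and 8.38 (2783 reads) in HBE Smart-seq2. A549 was high and both HBE libraries were low, and the log2 ratio of the LIEA libraries was 1.96 [1.88, 2.05], or 3.90-fold. RPS16, which with RPS19 belongs to the head, had 11.09 (5906 reads), 12.27 (12115 reads) and 9.19 (3388 reads). Its log2 ratio of A549 to HBE by LIEA was 1.19 [1.14, 1.23], or 2.27-fold, but HBE LIEA was also 3.73-fold above HBE Smart-seq2.

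RPS20, a further head protein, had a log2 rpkM of 6.50 (421 reads) in HBE LIEA, 8.27 (1299 reads) in A549 LIEA and 7.81 (2243 reads) in HBE Smart-seq2. HBE LIEA was the low library here, with A549 at 1.77 [1.61, 1.94] above it on the log2 scale, while HBE Smart-seq2 was closer to A549 LIEA than to HBE LIEA. RPS27, a zinc-binding protein of the small subunit, showed the same order with 8.42 (554 reads), 9.44 (1013 reads) and 9.27 (2140 reads). Its log2 ratio of 1.02 [0.87, 1.17] was not separated from 2-fold by counting error. For RPS20 and RPS27, the difference between cell lines by LIEA was therefore about as large as that between methods within HBE, whereas for RPS19 it was far larger.

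RPL36, a small protein of the large subunit, had the lowest ratio, with a log2 rpkM of 9.67 (2019 reads) in HBE LIEA and 8.48 (797 reads) in A549 LIEA, a log2 ratio of -1.19 [-1.31, -1.07]. HBE Smart-seq2 listed it at 3.92 (80 reads), below both. RPL27A had 8.53 (8326 reads), 7.48 (3609 reads) and 8.12 (13357 reads), with a log2 ratio of -1.06 [-1.11, -1.0005] between the cell lines and HBE higher by both methods. RPL29 had 9.73 (2712 reads), 8.69 (1193 reads) and 9.86 (6350 reads), and its ratio was -1.04 [-1.14, -0.94]. RPL17, whose protein lines the exit tunnel, had 10.08 (4792 reads), 9.07 (2148 reads) and 9.52 (6948 reads), with -1.01 [-1.08, -0.94]. In RPL27A, RPL29 and RPL17, A549 LIEA was below both HBE libraries.

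Several of these calls sat at the threshold. Just inside lay RPL17, 2.01-fold lower, and RPS27, 2.03-fold higher. Just outside on the lower side lay RPS10, a head protein, with 4657 reads in HBE and 2124 in A549 (1.98-fold lower). RPL10, which joins the large subunit late in its assembly, had a log2 ratio of 0.84 [0.75, 0.93], RPL23A at the tunnel exit at 0.82 [0.75, 0.88], RPS21 at -0.90 [-1.02, -0.78] and the stalk gene RPLP2 at -0.84 [-0.91, -0.77]. Requiring the whole counting interval to lie past 2-fold left 4 higher members, RPS27L, RPS19, RPS20 and RPS16, and 2 lower ones, RPL36 and RPL27A, where 8.03% and 9.2% of all genes met that rule. With the ratios centred on the median of all genes, 7 members, RPL10 of the large subunit among them, were called higher and only RPL36 was still called lower, so the division of calls by subunit held for the deposited scale and not for each scaling. In TPM, RPS10 and RPS21 joined the lower members and RPS27 left the higher ones.

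**Figure D3:**
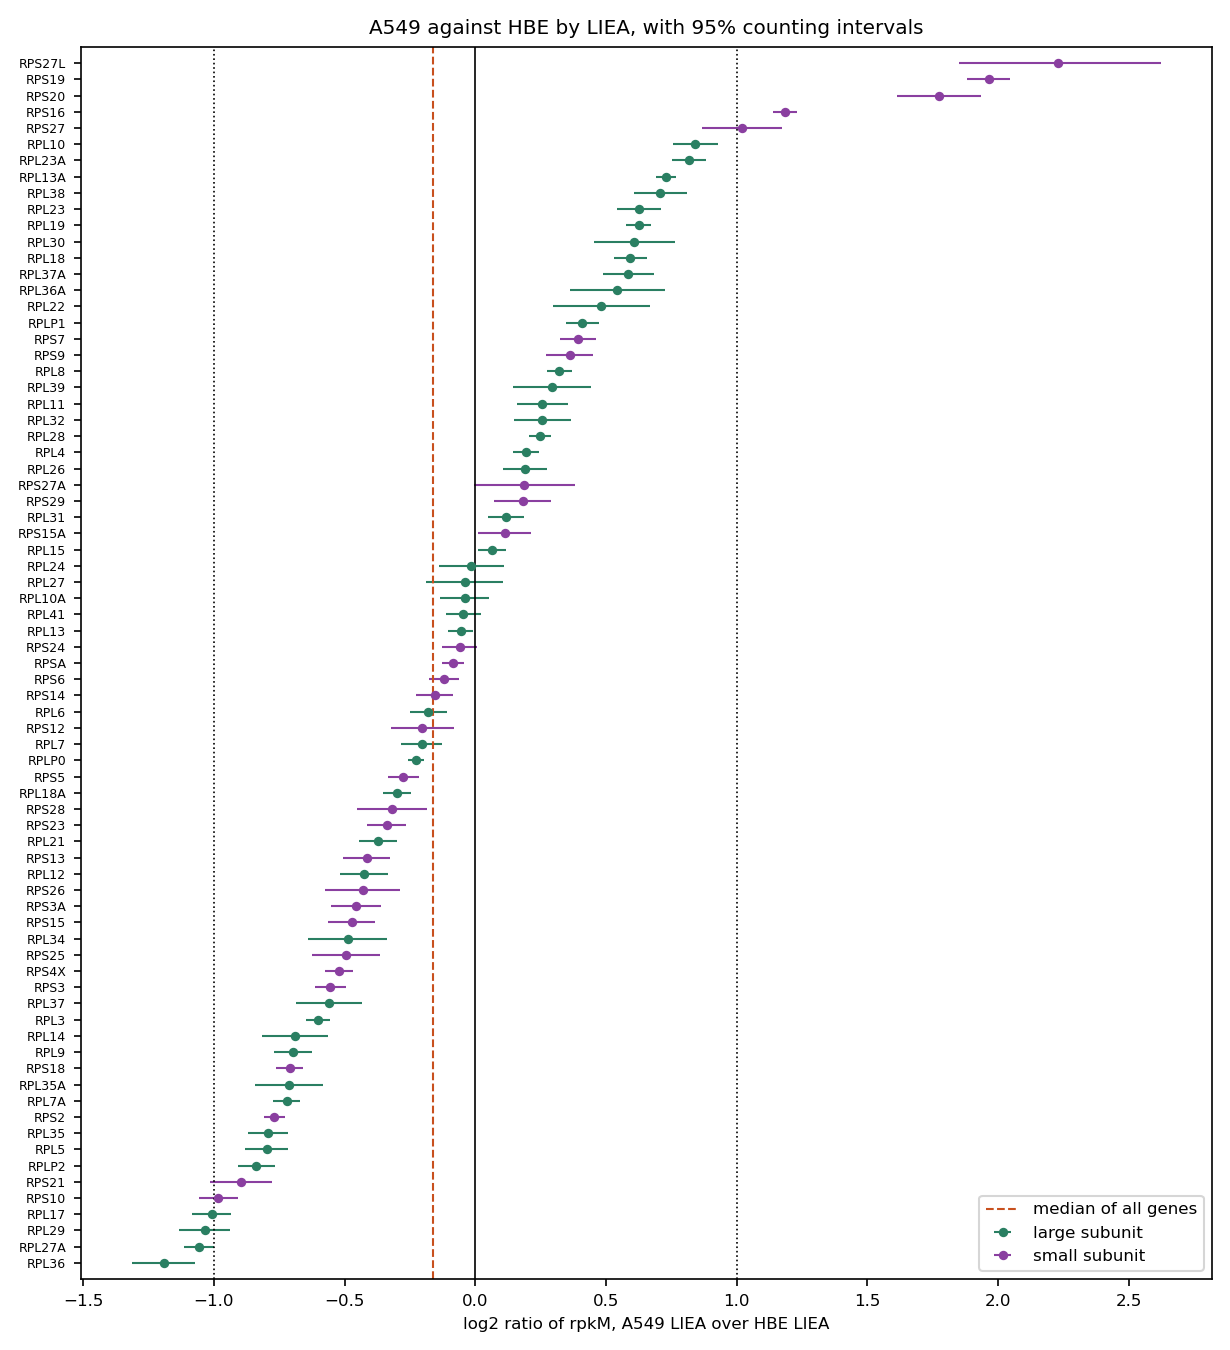
Log2 ratio of rpkM, A549 LIEA over HBE LIEA, for 75 of the 78 members quantified in both, with exact 95% counting intervals as bars, dotted lines at 2-fold and a dashed line at the median of all genes (-0.16). RPS27L, RPS19 and RPS20 stand apart at the top, and the other members, from RPS16 at 1.19 to RPL36 at -1.19, form a nearly continuous series.

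Many differences under 2-fold were still larger than counting error. Of the 78 intervals, 66 lay wholly within 2-fold and 7 held a ratio of 1, among them those of RPS24, RPL41, RPL10A, RPL27, RPL24 and RPS27A. RPS27A, which is made as a fusion with ubiquitin, had 441 reads in HBE and 453 in A549. How far such differences come from the making of 1 library rather than from the cell line was not tested, since no repeat library was analysed here.

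Proteins that work side by side did not share a ratio. In the P stalk, which recruits and activates translation factors, the log2 ratio of A549 LIEA to HBE LIEA was -0.23 [-0.26, -0.20] for RPLP0, 0.41 [0.35, 0.47] for RPLP1 and -0.84 [-0.91, -0.77] for RPLP2. RPLP1 and RPLP2, whose proteins pair with each other, had log2 rpkM of 10.55 and 11.03 in HBE LIEA and of 10.96 and 10.20 in A549 LIEA. Their order was thus inverted between the LIEA libraries. In HBE Smart-seq2 they had 11.38 and 6.86, the same order as in A549 LIEA, so the inversion did not hold for HBE by both methods. In the 5S RNP, which binds MDM2 when ribosome assembly fails, RPL5 had -0.80 [-0.88, -0.72] and RPL11 had 0.26 [0.16, 0.35], with 3620 and 1616 reads in HBE against 1877 and 1741 in A549. HBE Smart-seq2 had a log2 rpkM of 8.38 for RPL5, below the 8.78 of A549 LIEA. For RPL11 it had 9.16, also below the 9.37 of A549 LIEA. None of these 5 genes passed 2-fold between the LIEA libraries.

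Of the 8 genes around the exit tunnel, 1 was lower (RPL17), 7 were within 2-fold, and the ratios ran up to 0.82 for RPL23A. RPL4, which lines the tunnel beside RPL17, had 0.19 [0.14, 0.24] with 6379 and 6577 reads, and RPL39 at the tunnel's lower part had 0.29 [0.14, 0.44] with 699 and 772 reads. Among the 14 genes of the small subunit head and beak, 3 were higher (RPS19, RPS16 and RPS20) and 11 were within 2-fold, from -0.98 for RPS10 upward, with a median of -0.24. Among 10 Diamond-Blackfan anaemia genes, RPS19 alone passed 2-fold, and the median was -0.08. These lists are short, and their called shares are to be read against the 13.5% higher and 17.3% lower of all genes, so no such count is a result about its list.

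Ribosome production needs further genes that are no ribosomal proteins. Of 28 biogenesis genes, all quantified in both LIEA libraries, 1 was higher in A549, NOP56 of the box C/D RNPs that methylate rRNA, with a log2 ratio of 1.02. This is 3.57% of the list, and 7.14% were lower, beside 13.5% and 17.3% of all genes. The 2 lower ones were POLR1B, the second largest subunit of RNA polymerase I, with -1.87, and GNL3, a nucleolar GTPase, with -1.06. The median of the 28 was -0.50, below the -0.16 of all genes, and NCL and NPM1, the abundant nucleolar proteins nucleolin and nucleophosmin, both had -0.87. The SD over the 28 was 0.63, near the 0.68 of the members. Within 2-fold were 89.3% of the 28, beside 88.5% of the members, so a narrow spread was not particular to the members. Of 76 mitochondrial ribosomal protein genes quantified in both, 5 (6.58%) were higher and 14 (18.4%) lower, the latter share near the 17.3% of all genes, with a median of -0.13 and an SD of 0.76.

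Ribosomal proteins whose symbols fall outside the rule gave a further comparison. RACK1, listed as GNB2L1 and a scaffold on the small subunit head, had a log2 ratio of -0.30 with 7426 reads in HBE and 5437 in A549. FAU, which encodes a ribosomal protein fused to a ubiquitin-like protein, had -0.11. Paralogs with such symbols differed more. RPL22L1, the copy of RPL22, had 161 reads in HBE and 37 in A549, a log2 ratio of -1.97 [-2.53, -1.45], whereas RPL22 itself had 432 and 544 reads and 0.48 [0.30, 0.67]. RPL7L1, related to RPL7 and known for a role in rRNA processing, had 400 and 141 reads and -1.36 [-1.64, -1.07]. RPL26L1 at 0.07 and RPL36AL at 0.15 were close to equal.

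RPS27L was the member with the highest ratio between the cell lines. Its protein differs little from RPS27, and the gene is a known target of p53. It had a log2 rpkM of 3.83 (71 reads) in HBE LIEA, 6.06 (300 reads) in A549 LIEA and 5.39 (446 reads) in HBE Smart-seq2, and the log2 ratio of the LIEA libraries was 2.23 [1.85, 2.62], or 4.68-fold. HBE LIEA was again the low library, with HBE Smart-seq2 between it and A549. Of the reads of the RPS27 pair, RPS27L took 11.4% in HBE LIEA (Wilson interval 9.10 to 14.1), 22.8% in A549 LIEA (20.7 to 25.2) and 17.2% in HBE Smart-seq2 (15.8 to 18.8). RPS27 was itself higher in A549, and both genes of the pair were thus at least 2-fold higher there.

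RPL39L, the copy of RPL39 known from testis and from tumours, had 1 read in HBE LIEA, 42 reads in A549 LIEA and 1 read in HBE Smart-seq2. It was listed in all 3 but quantified in A549 only, at a log2 rpkM of 3.85. The ratio of A549 to HBE by LIEA was 46.6-fold, and its interval on the log2 scale ran from 2.98 to 10.88. RPL39L took 5.16% (3.84 to 6.90) of the reads of the RPL39 pair in A549 LIEA, 0.143% (0.0252 to 0.805) in HBE LIEA and 0.216% (0.0381 to 1.21) in HBE Smart-seq2. A549 was thus the high library, and both HBE libraries were at the lowest level that can be counted.

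The other copies were at or near that level in every library. RPL3L, known from heart and skeletal muscle, had 1, 0 and 3 reads in HBE LIEA, A549 LIEA and HBE Smart-seq2, beside 10570, 6281 and 13417 reads of RPL3. RPL10L, known from testis, had 1, 0 and 0 reads beside 1770, 2859 and 2658 of RPL10. In A549 LIEA, a count of 0 allows a share of the pair of up to 0.0478% for RPL3L and 0.105% for RPL10L. The coding sequences of these pairs are closely related, and how reads common to both genes were assigned was not tested.

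**Figure D4:**
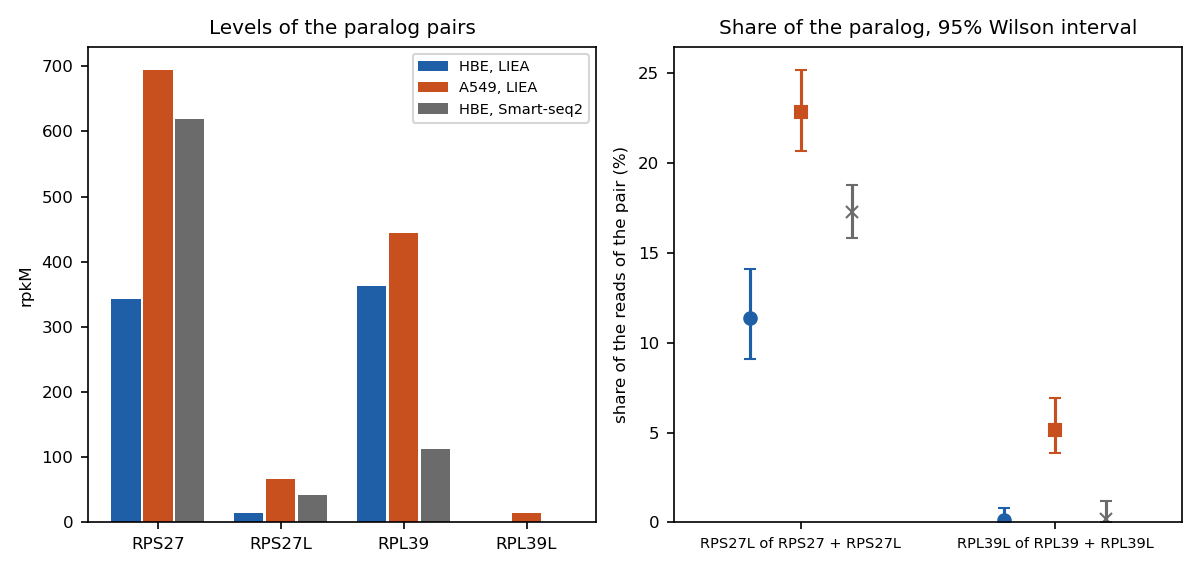
Left, rpkM (linear scale, from 0) of RPS27, RPS27L, RPL39 and RPL39L as bars for the 3 libraries, and right, the share of the pair's reads that the paralog took (percent, with 95% Wilson intervals). Both paralogs take their highest share in A549 LIEA, 22.8% for RPS27L and 5.16% for RPL39L.

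The start sites of members at either end of the ratios were read from RefSeq to show what they share in sequence. Each window holds 15 bases before and 15 bases from the annotated first base of the transcript, 5′ to 3′ on the gene's strand in GRCh38.p14, and capitals mark the unbroken run of C and T bases that holds the first base.
RPS19, chr19:41860240-41860269, plus strand: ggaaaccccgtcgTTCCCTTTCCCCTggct
RPS16, chr19:39435935-39435964, minus strand: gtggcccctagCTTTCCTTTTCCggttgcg
RPS27, chr1:153990747-153990776, plus strand: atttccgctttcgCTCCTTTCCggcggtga
RPS27L, chr15:63157463-63157492, minus strand: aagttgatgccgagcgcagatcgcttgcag
RPL36, chr19:5690280-5690309, plus strand: ccgcgcggcgccagCCCTTCCgccacggcc
RPL29, chr3:51995881-51995910, minus strand: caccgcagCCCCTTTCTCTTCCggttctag
RPL27A, chr11:8682777-8682806, plus strand: ttggcgaaggCCTTCCTTTTTCgtctgggc
RPL17, chr18:49492451-49492480, minus strand: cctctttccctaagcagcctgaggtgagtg
Runs of 7 to 14 nt stood at the start of RPS19, RPS16 and RPS27, which were higher in A549, and of RPL36, RPL29 and RPL27A, which were lower. In RPS27L and RPL17 no such run held the annotated first base, although the RPL17 window opens with C and T bases upstream of it, and RPS19 had a second listed start without one.

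Of the 81 members, 64 had a start in the RefSeq table, with 79 starts in all. At 1 or more of its starts, 49 of these 64 genes (76.6%) had a C as the first base, beside 18.0% of the 27305 genes of the table. A run of at least 5 C or T bases holding the first base was found in 49 (76.6%), beside 11.9% of all genes. The letters CTTTC were found in the window of 31 members (48.4%) and of 5.49% of all genes, and their reverse complement GAAAG in 2 members (3.12%) and in 4.05%. RPS29, one of the members without a run of 5 (2 nt), was within 2-fold between the cell lines at 0.18 [0.07, 0.29].

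Between LIEA and Smart-seq2 of the same HBE mRNA, the members differed far more than between the cell lines by LIEA. Of 78 members quantified in both, 37 were higher in LIEA, 5 were lower and 36 were within 2-fold. Among all 11735 genes, 27.8% were higher and 19.4% lower. Of the 78, 34 had the whole counting interval past 2-fold on the higher side and 5 on the lower side, beside 20.4% and 12.3% of all genes. Both subunits took part, with 22 large and 15 small subunit genes higher. With at least 1000 reads in both libraries, 21 of 55 members were higher and 3 lower, beside 23.9% and 11.5% of 633 genes. The median log2 ratio of LIEA to Smart-seq2 was 0.85 for the members, against 0.10 for all genes, -0.78 for the mitochondrial ribosomal protein genes and -1.16 for the biogenesis genes, and the members' median stayed between 0.70 and 1.05 under other scalings. The SD over the members was 1.92, against 1.498 over all genes. With at least 1000 reads in both libraries, the median was 0.53 for the members against 0.28 for all genes. The SD was then 1.20 against 1.13. That filter removes members for being low in Smart-seq2, such as RPS29 with 13 reads and RPL37A with 33. It thus selects on the ratio itself, and the smaller gap does not show that well-counted members resemble all genes.

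The highest ratios of this comparison were in genes with few Smart-seq2 reads. Large ratios also occurred at higher Smart-seq2 counts, as for RPS18 (12.5-fold, 1485 reads) and RPL13A (5.89-fold, 3402 reads). RPS29, a zinc-binding protein of the small subunit head, had 1345 reads in HBE LIEA and 13 in HBE Smart-seq2, a log2 ratio of 7.79 [7.01, 8.70], although Smart-seq2 was sequenced more deeply. RPL37A, likewise zinc-binding and of the large subunit, had 1520 and 33 reads, a log2 ratio of 6.62 [6.13, 7.17]. RPL36 had 2019 and 80 reads (5.75), and RPL28 had 8596 and 876 reads (4.39). By LIEA, A549 and HBE were close for RPS29, with 1376 and 1345 reads, and for RPL28, with 9212 and 8596.

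At the low end, RPS3A of the small subunit body had 2256 reads in HBE LIEA and 19998 in HBE Smart-seq2, a log2 ratio of -2.05 [-2.12, -1.99], and was at a log2 rpkM of 7.82 in A549 LIEA, 8.28 in HBE LIEA and 10.33 in HBE Smart-seq2. Both LIEA libraries were low for this gene. RPS27L (-1.56), RPS20 (-1.32), RPS9 of the mRNA entry tunnel (-1.19) and RPL32 (-1.12) were the other members lower in LIEA. RPS27L and RPS20 were also among the genes higher in A549, and both comparisons use the HBE LIEA library. The stalk again divided, with RPLP2 at 4.17, RPLP0 at 1.10 and RPLP1 at -0.82.

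Over the 77 genes without the paralogs, log2 rpkM of A549 LIEA and HBE LIEA had a Pearson r of 0.872 and a Spearman rho of 0.837, while HBE LIEA and HBE Smart-seq2 had 0.383 and 0.319. These values describe genes, which are not independent replicates, and the former pair shares the method and the latter the mRNA. The log2 ratio of A549 to HBE by LIEA had a rho of 0.02 with transcript length and of -0.01 with GC content over the 77 genes, and that of LIEA to Smart-seq2 had -0.12 and 0.23.

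**Figure D5:**
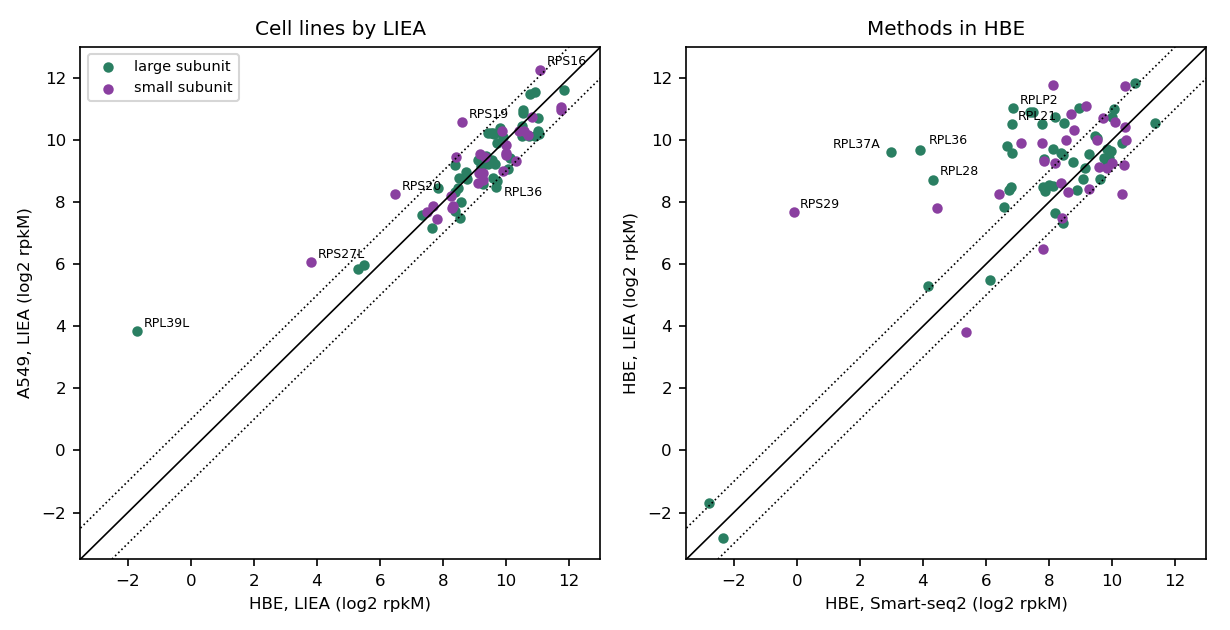
Log2 rpkM of the members in A549 LIEA against HBE LIEA (left) and in HBE LIEA against HBE Smart-seq2 (right), for the same 78 members where listed in both libraries, 1 point per gene coloured by subunit, with the line of equality and dotted lines at 2-fold. The points follow the line closely on the left (r = 0.872 without the paralogs) and scatter widely above it on the right (r = 0.383), and the 6 drawn members farthest from the line are named.

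Reads of members can also be claimed by other listed symbols. RPSAP58, a copy of RPSA, had 620 reads in HBE LIEA, 254 in A549 LIEA and 3 in HBE Smart-seq2, beside 9687, 8241 and 4734 of RPSA. The read-through symbol RPS10-NUDT3 had 154, 59 and 245 reads, beside 4657, 2124 and 3479 of RPS10. RPL36A-HNRNPH2, another read-through symbol, had 59, 80 and 147 reads, beside only 432, 568 and 416 of RPL36A. The values of RPSA, RPS10 and RPL36A are uncertain by these margins, and the part of such sharing in the ratios was not tested.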

How the data were processed

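PolyA+ mRNA of HBE and A549 was measured in 3 libraries. The authors aligned the reads to RefSeq-RNA by FANSe2, tolerating more errors in Ion Torrent than in Illumina reads, merged splice variants and deposited log2 rpkM per gene, without a pseudocount and without genes that had no reads. The members and gene lists were chosen with earlier results of these data known. The design had foreseen a count-based scaling tool. Since the deposited values are log2 rpkM, ratios were taken as differences of log2 rpkM and the trimmed mean of M values (trims of 30% and 5%) was computed directly.

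Reads were recovered from the steps of the values. The total was the whole number at which transcript lengths came out whole, and the reads of a gene, known up to a common factor of 1 to 12, were set by GENCODE transcript lengths on GRCh37, with the coding length as lower bound. That bound was added after the first lengths of RPL6 and RPS2 came out shorter than their coding sequences. The factor was above 1 for 1627 genes and 4 members (RPL6, RPS2, RPS26 and RPSA). Recovered reads summed to 99.3%, 99.3% and 98.8% of the totals in HBE LIEA, A549 LIEA and HBE Smart-seq2. The limit of 3 reads corresponded to 0.651, 0.722 and 0.305 reads per 1000000. In each library, 4 rows with repeated date-like symbols were left out, as were 1589 blank rows in Smart-seq2.

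Genes were named by a written rule: the 3 highest members per library, the 8 highest and 8 lowest ratios between cell lines, the 5 highest and 5 lowest between methods, the stalk, 5S RNP and exit tunnel genes, the paralogs and their partners, and ribosomal proteins outside the symbol rule. A few genes under this rule are not reported here. Start sequences came from RefSeq on GRCh38.p14, and their letters, the rule on whole counting intervals and the naming of RPL13, RPL22, the biogenesis genes and the processed copies were chosen after seeing values. Alternatives were log2(rpkM + 1), other filters, scalings and folds. The recovery of reads and the coverage of the counting intervals were checked on simulated data. The simulation took the recovered lengths and reads as true, so it could not check the common factors of the real data. Python 3.11.15, numpy 2.4.6, pandas 2.3.3, scipy 1.17.1 and matplotlib 3.10.9 were used.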

Additional observations from a re-analysis of the deposited data

How the results depend on the processing

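No paired analysis was possible because there was a single library for each condition, which also means that none could be left out of a comparison. For A549 LIEA against HBE LIEA, the median log2 ratio turned positive after centring on the median of all genes (0.0891 for the members, 0.121 for the large and 0.024 for the small subunit) and with trimmed mean of M values factors (0.056 and 0.0879 for the members and the large subunit), shifts that follow from the all-gene median of -0.16 and a scaling shift of -0.13. The number of lower members was 1 under both of these scalings. With a fold of 1.5, 15 members were higher and 16 lower, with a fold of 3, 3 and 0, and with at least 1000 reads in both libraries, 2 were higher. The SD of this ratio over all listed members was 0.92, and 1.001 for the large subunit, both with RPL39L included, and the scaled median absolute deviation was 0.77 for the large and 0.49 for the small subunit. The rank correlation with length was 0.31 when the longest annotated transcript was used. For HBE LIEA against HBE Smart-seq2, the difference of the large and small subunit medians was 0.11 and became -0.14 without the paralogs. The number of lower members was 8 with trimmed mean of M values factors, 3 in TPM, 3 with at least 1000 reads, 13 at a fold of 1.5 and 1 at a fold of 3, and 21 were higher with at least 1000 reads. With at least 100 or 1000 reads, the SD of this ratio was 1.47 or 1.20 for the members, 1.47 or 1.14 for the large and 1.46 or 1.30 for the small subunit. The SD of log2 rpkM over all listed large subunit genes was 3.07 in HBE LIEA and 2.80 in HBE Smart-seq2. For the small subunit it was 1.24 in HBE LIEA with at least 100 reads, without the paralogs or per coding length, 0.99 in A549 LIEA per coding length, and in HBE Smart-seq2 1.33 as scaled median absolute deviation, 1.70 with rpkM above 1, 1.47 with at least 100 reads and 1.82 per coding length. The share of summed rpkM was 17.3%, 15.1% and 8.45%, against 6.44%, 6.18% and 3.83% of reads. The other 182 values of these results kept their direction, though some changed in size. The difference of the subunit medians between methods was 0.36 with rpkM above 1 in both libraries. Higher members in A549 numbered 7 after centring on the median of all genes. Of the ratios of single called genes under the alternatives, 112 were classed as moved and 92 as the same. The latter class does not mean equal values. RPS20, for example, went from 1.77 to 1.94 between the cell lines after centring on the median of all genes and was classed as the same. The filters on 1000 reads and the coding length were chosen after seeing the data. Depth limits the paralogs RPL39L, RPL3L and RPL10L, each with 1 read in HBE LIEA.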

Other observations

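Apart from the members, 27 symbols of processed copies of ribosomal protein genes were listed, with 1117 reads in HBE LIEA, 695 in A549 LIEA and 887 in HBE Smart-seq2. These correspond to 0.377%, 0.271% and 0.235% of the reads of the members. RPSAP58 held 620, 254 and 3 of them. RPL29P2 had 34, 0 and 156 reads, so that none was counted in A549 LIEA, where a count of 0 allows up to 0.722 reads per 1000000. RPL19P12 had 57, 94 and 3 reads, and RPL23AP82 had 59, 49 and 240. The order of the 3 libraries therefore differed from copy to copy. Another 3 symbols of read-through transcripts had 214, 140 and 395 reads in all.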
